A study of Mus musculus with 6 samples.

Results

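The Hoxa cluster on mouse chromosome 6 was described from maps of open chromatin (ATAC-seq) and of H3K27ac, a histone H3 acetylation that marks active promoters and enhancers (ChIP-seq), in TrkC sensory neurons of the dorsal root ganglion. Its members were 9 genes given by name, Hoxa2, Hoxa3, Hoxa4, Hoxa5, Hoxa6, Hoxa7, Hoxa9, Hoxa10 and Hoxa11, out of 21887 protein-coding genes in the RefSeq annotation of GRCm38. They were read as 1 interval that runs from the lowest to the highest gene coordinate with 50 kb added on each side. All cells came from E11.5 embryos of Runx3-BAC-GFP-CB6 mice, a transgenic reporter line, and were sorted for GFP, so the population is the one in which the Runx3 bacterial artificial chromosome drives GFP. There were 2 ATAC, 2 H3K27ac and 2 input DNA samples, each from 50000 cells. Both ATAC samples were deposited as 1 consensus peak list and both H3K27ac samples as another, which gives positions without any signal. Replicates therefore cannot be compared, and their depth is not known. The labels give neither the axial level of the ganglia nor the number of embryos pooled.

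Hox genes encode homeodomain transcription factors that give cells their position along the head-to-tail axis. In a mammalian Hox cluster the genes are lined up in the order of their expression domains: genes at one end are switched on early and far anteriorly, and genes at the other end later and more posteriorly. Polycomb complexes keep the unused genes silent, and sensory and motor neurons keep a record of their axial level in the set of Hox genes they express. All member genes with a strand in the RefSeq promoter table lie on the minus strand, so the anterior gene Hoxa2 has the lowest coordinates and the posterior gene Hoxa11 the highest.

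The ATAC list held 43652 peaks on the assembled chromosomes, with a median width of 217 bp, and the H3K27ac list held 19924, with a median width of 1036 bp. Peaks were called over all sorted cells, so a mark in a part of the cells and a weak mark in every cell cannot be told apart. Of 9 sensory neuron genes set down as markers, 8 had ATAC and 7 had H3K27ac within 1 kb of an annotated end, beside 60.4% and 49.3% of all protein-coding genes. The exceptions were Ntrk3, which encodes TrkC, for both marks and Runx3 for H3K27ac; all 9 had H3K27ac inside the gene span. H3K27ac lay at an end of 0 of 6 spinal cord genes, 0 of 5 endothelial genes, 0 of 4 blood genes and 1 of 6 mesenchyme genes (Twist1), but of 4 of 5 glial and neural crest genes (Sox10, Erbb3, Foxd3 and Fabp7). ATAC lay at an end of 3 of 5 glial, 4 of 6 spinal cord, 4 of 6 mesenchyme, 2 of 5 endothelial and 1 of 4 blood genes; the first 3 counts are near the 60.4% of all genes. The part of glial cells in the peaks of the Hoxa cluster was not tested.

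5 RefSeq promoters, from 250 bases before to 50 bases after an annotated start, show the states found along the cluster. They are on GRCm38.p6, minus strand, and are written 5′ to 3′; capitals mark the bases inside an ATAC peak. The Hoxa5 promoter (chr6:52204538-52204837) lay wholly inside an ATAC peak and wholly under H3K27ac. The Hoxa9 promoter (chr6:52227321-52227620) lay wholly under H3K27ac with no ATAC peak. Hoxa10 has 2 listed starts: the inner one (promoter at chr6:52234890-52235189) lay at the edge of an acetylated region, and the outer one (promoter at chr6:52240805-52241104) just beyond the last acetylated base of the cluster. The Hoxa11 promoter (chr6:52245761-52246060) held neither mark.
Hoxa5: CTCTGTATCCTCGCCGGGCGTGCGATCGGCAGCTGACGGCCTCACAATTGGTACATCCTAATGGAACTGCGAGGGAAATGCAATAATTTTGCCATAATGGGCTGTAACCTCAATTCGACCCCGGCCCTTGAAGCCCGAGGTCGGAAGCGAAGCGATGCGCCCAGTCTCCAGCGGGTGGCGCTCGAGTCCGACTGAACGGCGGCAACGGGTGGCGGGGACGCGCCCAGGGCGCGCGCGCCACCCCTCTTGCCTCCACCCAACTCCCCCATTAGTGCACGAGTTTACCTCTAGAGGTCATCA
Hoxa9: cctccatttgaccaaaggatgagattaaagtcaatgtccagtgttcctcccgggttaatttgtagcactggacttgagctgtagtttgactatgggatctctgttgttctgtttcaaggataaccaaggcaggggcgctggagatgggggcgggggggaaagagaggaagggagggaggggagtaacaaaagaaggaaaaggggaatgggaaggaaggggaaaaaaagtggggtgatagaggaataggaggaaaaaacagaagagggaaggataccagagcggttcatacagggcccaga
Hoxa10, inner start: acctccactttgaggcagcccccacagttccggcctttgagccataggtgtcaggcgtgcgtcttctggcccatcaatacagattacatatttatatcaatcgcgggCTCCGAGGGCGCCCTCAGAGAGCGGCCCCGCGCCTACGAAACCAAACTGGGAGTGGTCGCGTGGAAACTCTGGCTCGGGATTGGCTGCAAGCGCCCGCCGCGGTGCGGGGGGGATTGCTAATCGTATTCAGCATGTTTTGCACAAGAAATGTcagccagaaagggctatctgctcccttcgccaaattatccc
Hoxa10, outer start: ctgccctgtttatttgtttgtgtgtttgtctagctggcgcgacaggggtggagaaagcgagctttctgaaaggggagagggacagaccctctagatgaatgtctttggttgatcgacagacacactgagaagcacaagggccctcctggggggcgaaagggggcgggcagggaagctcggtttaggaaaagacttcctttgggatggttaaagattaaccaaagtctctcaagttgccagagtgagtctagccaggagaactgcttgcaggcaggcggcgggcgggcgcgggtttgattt
Hoxa11: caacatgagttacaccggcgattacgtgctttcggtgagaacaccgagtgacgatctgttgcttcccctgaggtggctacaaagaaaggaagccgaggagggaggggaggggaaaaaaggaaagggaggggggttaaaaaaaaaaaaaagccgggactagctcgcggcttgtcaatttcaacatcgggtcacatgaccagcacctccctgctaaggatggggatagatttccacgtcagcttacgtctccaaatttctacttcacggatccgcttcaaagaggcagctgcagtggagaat

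H3K27ac covered most of the Hoxa cluster from Hoxa2 to Hoxa10 and stopped before Hoxa11. Between the outer ends of Hoxa2 and Hoxa11 (chr6:52162417-52245810, 83.4 kb), 6 H3K27ac peaks covered 65840 bp, which is 79.0% of the stretch. ATAC peaks were far smaller: 15 of them covered 3928 bp, or 4.71%. In the whole interval (chr6:52112417-52295810, 183 kb), H3K27ac covered 70607 bp (38.5%) and 22 ATAC peaks covered 5449 bp (2.97%). The anterior flank of 50 kb held 4767 bp of H3K27ac, all of it continuing from the first peak over Hoxa2, and the posterior flank of 50 kb held none. The map of both peak lists shows this one-sided block.

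**Figure D1:**
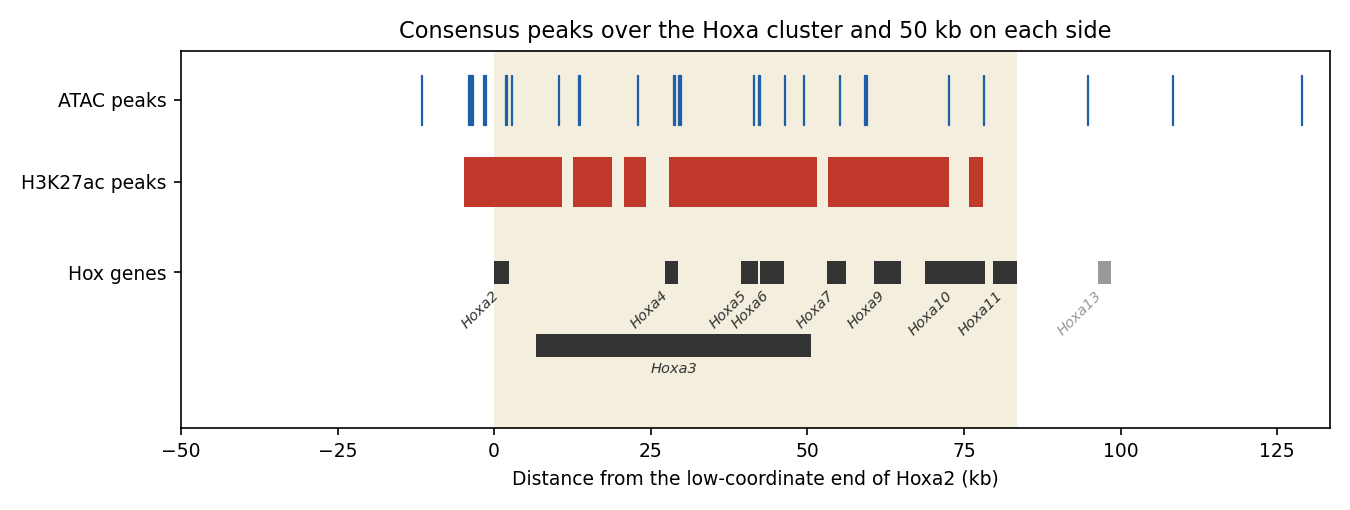
Consensus ATAC peaks (blue) and H3K27ac peaks (red) along the Hoxa interval, by distance in kb from the low-coordinate end of Hoxa2; members are black, Hoxa13 grey, and the shaded stretch runs from Hoxa2 to Hoxa11. The 6 H3K27ac peaks form 1 block that ends inside Hoxa10, with 4 ATAC peaks beyond its end.

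The acetylated block consisted of 6 peaks of very unequal width. From anterior to posterior, the first peak (chr6:52157650-52173188) was 15539 bp wide and took in Hoxa2 and the low-coordinate end of Hoxa3. The second (chr6:52174962-52181183, 6222 bp) and the third (chr6:52183151-52186738, 3588 bp) lay inside the span of Hoxa3. The fourth (chr6:52190255-52214025) was 23771 bp wide and held Hoxa5 and Hoxa6 whole and most of Hoxa4. The fifth (chr6:52215714-52234952) was 19239 bp wide and ran from Hoxa7 over Hoxa9 into Hoxa10. The sixth (chr6:52238186-52240433, 2248 bp) lay inside Hoxa10.

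Among all 19924 H3K27ac peaks, the fourth Hoxa peak ranked 2 by width, the fifth ranked 3 and the first ranked 8. The other 3 ranked 105, 600 and 2371, so each of the 6 was wider than the median peak. In the whole list 23 peaks (0.115%) were wider than 10 kb, and 3 of them were these Hoxa peaks. Such width was shared with other Hox clusters: 7 of the 23 touched Hox genes. The widest of all was the Hoxb peak of 85798 bp, and Hoxc held peaks of 17320, 12147 and 11627 bp. When H3K27ac peaks within 10 kb of each other were joined, the 6 peaks made 1 domain of 82784 bp, of which 70607 bp (85.3%) was covered. That domain ranked 2 of 16290 by covered bp and 4 by span. Each list is the authors' consensus, and how neighbouring calls were merged is not given in the sources used here, so the widths depend on that step. ATAC peaks lay under 5 of the 6 Hoxa peaks, all but the sixth, against 68.9% of all H3K27ac peaks. These shares stand on unlike widths, since each of the 6 was wider than the median peak.

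**Figure D2:**
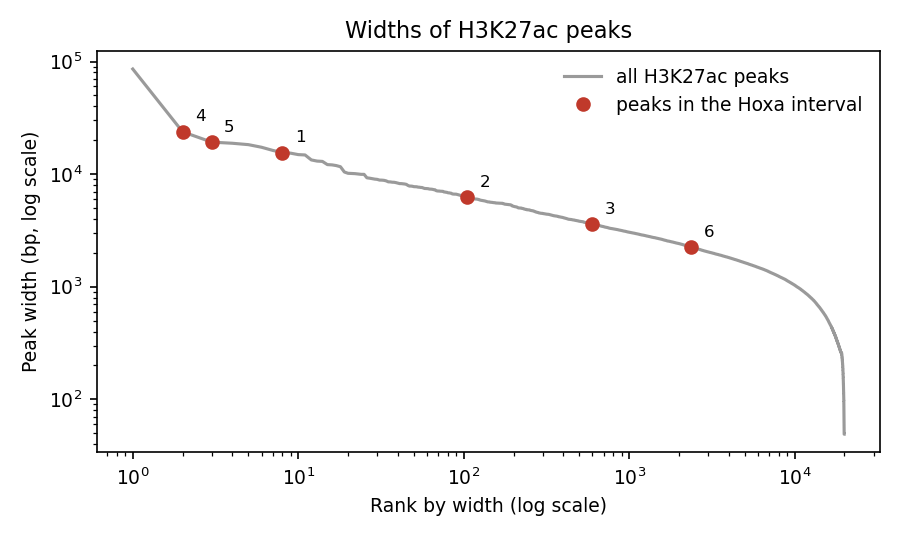
Width in bp of every H3K27ac peak against its rank by width, both on log scales; red points are the 6 peaks of the Hoxa interval, numbered from anterior to posterior. Peaks 4, 5 and 1 lie among the 10 widest and peak 6, at 2248 bp, ranks 2371.

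5 gaps without H3K27ac broke the block between Hoxa2 and Hoxa10, each over 1 kb long and together 12177 bp. The first gap (chr6:52173189-52174961, 1773 bp) and the second (chr6:52181184-52183150, 1967 bp) lay inside the Hoxa3 span. The third (chr6:52186739-52190254, 3516 bp) was the longest: it also lay inside that span and took in 573 bp at the low-coordinate end of Hoxa4, 28.3% of that gene. The fourth (chr6:52214026-52215713, 1688 bp) separated the Hoxa3 to Hoxa6 stretch from Hoxa7 and took in 91 bp of Hoxa7. The fifth (chr6:52234953-52238185, 3233 bp) lay inside Hoxa10, 33.5% of that gene. The first 4 gaps held no ATAC peak; at the edge of the fifth lay the 152 bp ATAC peak over the inner Hoxa10 start, with 130 bp in the gap and 22 bp under the fifth H3K27ac peak. By annotated spans, the gaps were not confined to the spaces between genes. The fifth, however, lay upstream of the inner Hoxa10 start. It was inside that gene only through the span up to the outer start. The first, the second and most of the third lay inside a member only through the 44009 bp span of Hoxa3. H3K27ac covered 78.1% of the 67013 bp inside members and 82.6% of the 16381 bp between them. Both shares also count bases past the last H3K27ac peak, which belong to no gap.

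Gene by gene, 8 of 9 members had H3K27ac within 1 kb of an annotated end, against 49.3% of all protein-coding genes. The exception was Hoxa11. The same 8 had over 50% of their span under H3K27ac, against 1.66% of all protein-coding genes, and 4 of them (Hoxa2, Hoxa5, Hoxa6 and Hoxa9) were wholly covered, against 0.516%. The median over the 9 members was 96.9% of the gene span, and over all protein-coding genes 0.645%. Over the 11909 genes with any H3K27ac inside, the median was 3.78%. Shares of the span depend on gene length, and the members were not matched by length to other genes. H3K27ac lay anywhere inside the span of the same 8, against 54.4% of all protein-coding genes. Neighbouring members share peaks, so these are not 9 independent observations. ATAC peaks lay within 1 kb of an end of 6 of 9 members, close to the 60.4% of all protein-coding genes, and both marks lay at an end of the same 6, against 47.8%. ATAC peaks lay inside the span of 6 members too, all but Hoxa6, Hoxa9 and Hoxa11, near the 68.2% of all genes.

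Among the anterior genes, Hoxa2, which patterns the hindbrain and the second branchial arch, had all 2415 bp of its span under H3K27ac and 2 ATAC peaks near its start. One, of 300 bp, lay inside the gene 310 bp from the start, and the other, of 195 bp, lay 237 bp upstream. Hoxa3, required for the thymus and parathyroid, had 36753 of 44009 bp (83.5%) under 4 H3K27ac peaks and 9 ATAC peaks inside. That span includes predicted transcripts and contains Hoxa4, Hoxa5 and Hoxa6, which hold 8098 bp of its H3K27ac and 3 of its ATAC peaks. No ATAC peak lay within 1 kb of either annotated end of Hoxa3; the nearest to its listed start was 1199 bp away. Hoxa4, which acts in the patterning of cervical vertebrae, had 1449 of 2022 bp (71.7%) under H3K27ac. A 274 bp ATAC peak lay inside Hoxa4, and a 405 bp one lay 144 bp beyond its high-coordinate end.

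The central genes were each covered to 96.9% or more, as were Hoxa2 and Hoxa9. Hoxa5, needed for the respiratory tract and for phrenic motor neurons, was wholly under H3K27ac (2834 bp), with a 362 bp ATAC peak over its start and a 255 bp one inside the gene 607 bp from it. Hoxa6, a gene of the thoracic region, was wholly under H3K27ac (3815 bp) with no ATAC peak inside its span, but a 174 bp peak lay 35 bp upstream of its start. Hoxa7, another gene of the thoracic region, had 2860 of 2951 bp (96.9%) under H3K27ac and a 206 bp ATAC peak inside, 882 bp from its start. The widest ATAC peak of the interval, 474 bp (chr6:52221497-52221970), was at no member's end: it lay between Hoxa7 and Hoxa9, 2923 bp beyond Hoxa7 and 1126 bp before Hoxa9.

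The posterior genes differed from one another. Hoxa9, known for its part in blood stem cells and leukaemia, was wholly under H3K27ac (4274 bp) but had no ATAC peak inside or within 1 kb of an end. The ATAC peak nearest to its start was 5400 bp away. Hoxa10, which acts in lumbar patterning and in the uterus, had 6004 of 9658 bp (62.2%) under parts of 2 H3K27ac peaks, with an ATAC peak over or near each of its 2 starts. That share counts the span up to the outer start. The fifth H3K27ac peak covered the whole stretch from the low-coordinate end of Hoxa10 to its inner start. Hoxa11, which acts in the forearm, kidney and uterus, had 0 of 3706 bp under H3K27ac and no ATAC peak inside. The ATAC peak nearest to its start was 5170 bp away, inside Hoxa10.

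**Figure D3:**
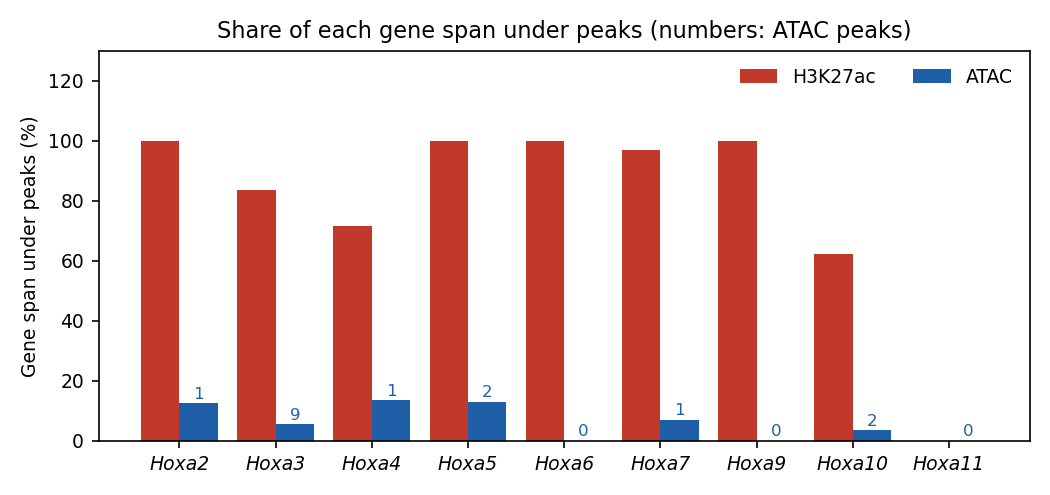
Percent of each member's annotated span under H3K27ac peaks (red bars) and ATAC peaks (blue bars), ordered from anterior to posterior, with the number of ATAC peaks in the span above each blue bar. H3K27ac covers from 62.2% to 100% of the spans of Hoxa2 to Hoxa10 and none of Hoxa11; Hoxa6 and Hoxa9 hold 0 ATAC peaks although wholly acetylated.

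The posterior limit of acetylation fell inside the Hoxa10 span as read up to its outer start, 421 bp short of that start. The last acetylated base was chr6:52240433, 78.0 kb from the low-coordinate end of Hoxa2 and 1672 bp before Hoxa11 begins. An ATAC peak of 177 bp (chr6:52240464-52240640) began 30 bp beyond that base and lay 214 bp from the outer Hoxa10 start, the fourth of the promoters printed above. At the inner start of Hoxa10, the fifth H3K27ac peak ended 13 bp upstream of the start and the ATAC peak covered the start itself. Acetylation then resumed 3247 bp from the inner start, in the sixth peak. Beyond the limit no H3K27ac peak followed for 399 kb, where the next one (768 bp wide) lay at Hibadh. On the anterior side the nearest H3K27ac peak before the block, 923 bp wide, was 144 kb away at Skap2. Read with peaks joined within 5, 10 or 20 kb, or from the last single peak, the limit was the same base. These readings could not differ, because the next H3K27ac peak was 399 kb away.

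**Figure D4:**
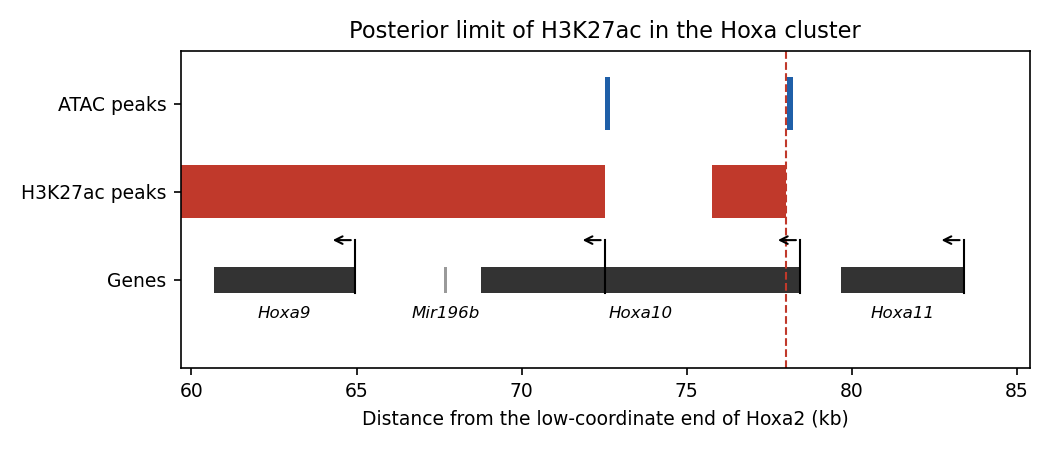
The posterior end of the acetylated block, by distance in kb from the low-coordinate end of Hoxa2, with ATAC peaks (blue), H3K27ac peaks (red), genes and their listed starts (arrows point in the direction of transcription); the dashed line is the last acetylated base. The line falls 421 bp short of the outer Hoxa10 start, and Hoxa11 to its right has neither mark.

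Open sites of the interval lay largely inside the acetylated block. Of its 22 ATAC peaks, 17 (77.3%, 95% Wilson interval 56.6 to 89.9, which covers counting error only) overlapped H3K27ac, against 39.6% of all 43652 ATAC peaks. These shares stand on unlike coverage: H3K27ac covers 38.5% of this interval, but only 25.5 Mb over all assembled chromosomes. Of these 17, 16 lay wholly under H3K27ac, and the other was the peak at the inner Hoxa10 start. The 5 without overlap were 1 peak of 143 bp anterior to the block and 4 beyond the limit. Of these 4, the first was the peak next to the outer Hoxa10 start, and the others were 98, 117 and 192 bp wide and lay 11266, 24814 and 45448 bp beyond Hoxa11. Median widths were 274 bp inside the block and 147 bp beyond the limit. Inside the span of a member lay 13 of the 22 ATAC peaks, 9 of them in that of Hoxa3.

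Of 9 RefSeq promoters that matched 8 members, all but Hoxa4, 7 overlapped H3K27ac, against 33.8% of all 32851 promoters, and 6 of those lay wholly under it. ATAC peaks overlapped 4 of the 9 (Hoxa2, Hoxa5, Hoxa6 and the inner Hoxa10 start), close to the 40.5% of all promoters. The acetylated promoters without an ATAC peak were those of Hoxa3, Hoxa7 and Hoxa9. CpG dinucleotides numbered 29 in the Hoxa5 promoter, 21 in the inner and 12 in the outer Hoxa10 promoter, 15 in that of Hoxa11 and 4 in that of Hoxa9, beside a median of 7 over all promoters. On both strands, CCAAT was found in 4 of the 9 (37.4% of all promoters hold it), TATAAA in 1 (13.6%), the Hox-Pbx motif TGATTNAT in 1, that of Hoxa2 (3.22%), and the Runx motif TGTGGT in 0 (16.8%). No match overlapped another motif.

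Of 10 noncoding genes that overlap the acetylated block, 6 were wholly under H3K27ac, 3 were partly covered and 1 was not covered. They were taken because they overlap this block, of which 85.3% is covered, so high cover follows from that choice. The share over all noncoding genes was not computed. Mir196b, which lies between Hoxa9 and Hoxa10 on the minus strand and gives microRNAs that repress Hox transcripts, was wholly under the fifth H3K27ac peak. Its mature sequences from RefSeq (GRCm38.p6, chr6:52230129-52230150 for the 5p arm and chr6:52230094-52230115 for the 3p arm) are shown because this is the microRNA gene of the interval; capitals mark the seed. The seeds of the arms differ.
mmu-miR-196b-5p: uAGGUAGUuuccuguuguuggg
mmu-miR-196b-3p: uCGACAGCacgacacugccuuc
No ATAC peak lay within 1 kb of Mir196b; the nearest was 4781 bp from the 5p arm. The long noncoding RNA genes Hotairm1, Hoxaas2, Hoxaas3, 5730596B20Rik and Gm52902 were wholly covered by H3K27ac. LOC115490409 was covered to 69.3%, Hotairm2 to 54.1% and Gm15050 to 26.1%, and Mira, which lies wholly inside the fourth gap, had 0%. Posterior to the limit, Hoxa11os and Hottip, a noncoding gene next to the posterior end of the cluster, had 0 bp under H3K27ac and no ATAC peak inside. Hoxa13, a protein-coding gene of the posterior flank that is not a member, had neither mark in its span.

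Set beside the other Hox clusters over paralog groups 2 to 11, the Hoxa cluster was covered to 79.0% by H3K27ac, with 6 peaks and 5 gaps over 1 kb. The Hoxb cluster was covered to 100% by 1 peak of 85798 bp with no gap, the Hoxc cluster to 64.1% by 8 peaks with 7 gaps, and the Hoxd cluster to 42.6% by 8 peaks with 7 gaps. The longest gap was 3516 bp in Hoxa, 8260 bp in Hoxc and 8186 bp in Hoxd. The stretches are unlike, since Hoxb has no gene of group 10 or 11 and the Hoxa stretch runs on past the limit to Hoxa11. Over groups 2 to 9, a choice made after seeing the data, the covered share was 86.2% in Hoxa, 100% in Hoxb, 71.8% in Hoxc and 55.3% in Hoxd. With ATAC peaks over groups 2 to 11 the order was another: 15 in Hoxa (1.80 per 10 kb), 12 in Hoxb (1.45), 9 in Hoxc (1.09) and 9 in Hoxd (1.31). Nearly all of them overlapped H3K27ac: 14 of 15 in Hoxa, 12 of 12 in Hoxb, 8 of 9 in Hoxc and 8 of 9 in Hoxd. Of all ATAC peaks, 39.6% did. The Hoxb count was fixed in advance, since H3K27ac covers 100% of that stretch, and the other counts also depend on the covered share. With 1 list per assay there is no spread to test these differences against.

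The most posterior gene with H3K27ac within 1 kb of an end was Hoxa10 in the Hoxa cluster, Hoxb9 in Hoxb, Hoxc11 in Hoxc and Hoxd9 in Hoxd. The posterior genes were covered unequally. Hoxa10 had 62.2% of its span under H3K27ac, against 26.0% for Hoxc10 and 3.47% for Hoxd10, and Hoxa11 had 0%, against 8.50% for Hoxc11 and 5.32% for Hoxd11. Of the 4 paralogs of group 9, all had the mark at an end: Hoxa9 and Hoxb9 were wholly covered, Hoxc9 to 98.0% and Hoxd9 to 64.3%. Over all clusters H3K27ac lay at an end of 2 of 3 genes of group 10, 1 of 3 of group 11, 0 of 2 of group 12 and 0 of 4 of group 13. The share of all protein-coding genes, for these groups and for group 9, was 49.3%. With so few genes per group, a trend along the groups was not tested. ATAC peaks lay at an end of 3 of the 4 genes of group 13, all but Hoxa13, which is close to the 60.4% of all protein-coding genes.

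**Figure D5:**
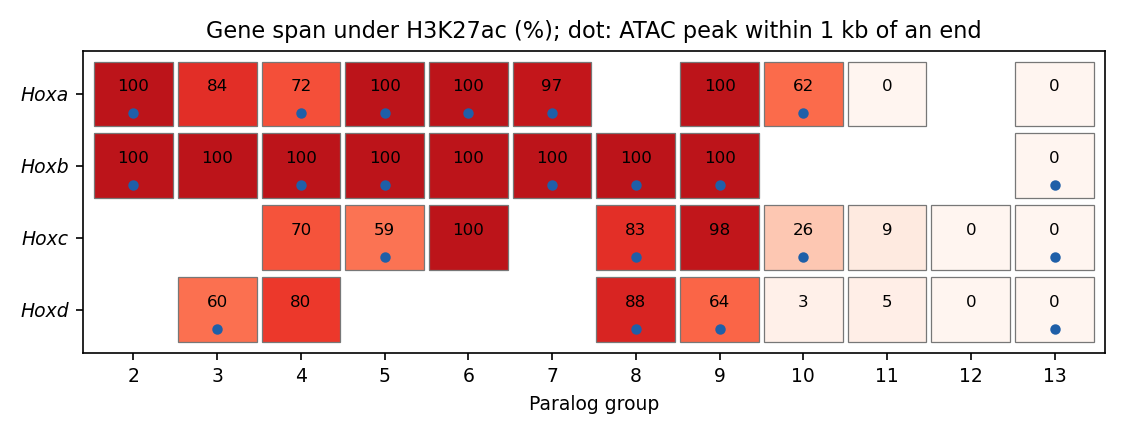
Percent of the gene span under H3K27ac (number and shade) for each Hox gene, by cluster (rows) and paralog group from 2 to 13 (columns); a blue dot marks an ATAC peak within 1 kb of an annotated end, and blank places have no gene. Coverage of Hoxa is 62.2% or more from Hoxa2 to Hoxa10 and 0% at Hoxa11 and Hoxa13.

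Peaks were also read at the ends of genes that work with Hox proteins or regulate Hox clusters. These lists were chosen with earlier results of these data known. All 9 Hox cofactor genes of the Meis, Pbx and Pknox families, whose proteins bind DNA together with Hox proteins, had H3K27ac within 1 kb of an end, against 49.3% of all protein-coding genes, and 8 had ATAC there (all but Meis3). Of 8 known regulators of Hox clusters, 3 had H3K27ac at an end: Rara and Rarg, which encode retinoic acid receptors, and Gdf11. The other 5 were Cdx1, Cdx2, Cdx4, Rarb and Egr2; among them Rarb held 2222 bp and Egr2 552 bp of H3K27ac inside the gene, and the Cdx genes held none. ATAC lay at an end of 4 of the 8 regulators, beside 60.4% of all genes.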

How the data were processed

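Libraries had at most 15 PCR cycles and fragments up to 600 bp, per the labels' protocols. Per the submitters' processing notes, cutadapt 1.18, Bowtie2 2.3.5.1, MACS2 and bedtools were used on mm10. The deposited values are peak start and end positions in bp, in 1 consensus list per assay. How the authors formed it, with which thresholds, is not given in the sources used here. Depth per sample is unknown, and input DNA is not used here.

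Of the deposited peaks, 43652 of 43739 ATAC and 19924 of 19928 H3K27ac peaks lay on chromosomes 1 to 19, X and Y and were used, with positions counted from 1. Gene spans and promoters are from RefSeq (GRCm38.p6, the assembly of mm10). Overlap means at least 1 bp. An end window takes 1 kb to each side of both gene ends, a gap is at least 1 kb without H3K27ac between 2 peaks, and domains join H3K27ac peaks within 10 kb. Promoters matched 8 of 9 members by symbol. Protein sequences were not used here. Interval functions (Python 3.11.15, pandas 2.3.3) were tested on simulated data. No test was run, since each assay has 1 list. Alternatives were the wider 50% of each list, other flanks, windows, gap and joining distances, gene spans, starts and 50% overlap. Some genes of the interval and of the lists are not reported here. The members and gene lists were chosen with earlier results of these data known. Genes named are all members, other genes overlapping the interval, Hox paralogs, and list members where 5 or fewer had or lacked a mark; Hibadh, Skap2 and Nr2f2, which lie at peaks described, were named after their values were seen.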

Additional observations from a re-analysis of the deposited data

How the results depend on the processing

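Of 45 recomputed values, 41 stayed within 1.5 times the reported one. Some of these could not move: H3K27ac values with other flanks, the limit with other joining distances, and gaps with a 0.5 kb minimum. The 41 also include members with ATAC at an end, at 9 and at 4 against 6, which sit just at the 1.5 times bound. With the wider 50% of each list (ATAC over 217 bp, H3K27ac over 1036 bp), all 6 H3K27ac peaks of the interval remained, so covered bp, gaps and the limit were unchanged, whereas 10 ATAC peaks remained of 22, covering 3487 bp, and all 10 overlapped H3K27ac. With a gap minimum of 2 kb the number of gaps was 2, since 3 of the 5 are shorter. Members with ATAC at an end numbered 5 with a window of 0.5 kb, 9 with 2.5 kb, 4 with the wider 50% and 5 of 8 at a listed start. Members with H3K27ac at an end numbered 7 of 8 at a listed start, and 9 with 2.5 kb, where Hoxa11 is reached from the limit 1672 bp away. The share of all genes was not computed at these settings. No paired analysis was possible because each list pools both replicates of its assay, and for the same reason no replicate could be left out. The lists carry no signal or score, so a gap or a posterior gene without a peak means that no peak was called at an unknown depth.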

Other observations

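The 4 member promoters that overlapped an ATAC peak (Hoxa2, Hoxa5, Hoxa6 and the inner Hoxa10 start) were also the 4 of 9 that held CCAAT, with 7 matches in all. This was noticed after the values were seen. Over all promoters the motif was about as frequent with as without an ATAC peak: 38.0% of 13311 promoters with one and 37.0% of 19540 without one held it.

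ATAC peaks were spread unevenly under the widest acetylated peaks. The first Hoxa peak held 6 ATAC peaks (3.86 per 10 kb), the fourth held 6 (2.52) and the fifth held 3 (1.56). The wide Hoxb peak had 1.52 per 10 kb. The Hoxc peaks of 17320, 12147 and 11627 bp had 1.15, 0 and 1.72. The 16 H3K27ac peaks over 10 kb that touch no Hox gene had 0.828 to 3.36 per 10 kb, with a median of 1.99, and those at Isl1 and Nr2f2, the next in width after the fifth Hoxa peak, held 2 and 3 ATAC peaks.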
